A study of Homo sapiens with 2 samples.

Results

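The FOS and JUN genes encode the subunits of the transcription factor AP-1. The 7 genes described here, FOS, FOSB, FOSL1, FOSL2, JUN, JUNB and JUND, were taken by symbol from the 58884 Ensembl gene IDs in the count files, and all 7 were found and had enough reads to be compared. The cells were T24/R, adherent human cells from bladder that the depositors describe as epithelial, whose name contains that of the urothelial carcinoma line T24. One group received 1600 nM THZ1 for 6 h and the other the solvent DMSO for 6 h, with 1 library of poly(A)-selected mRNA per group. THZ1 is a covalent inhibitor of CDK7, the TFIIH kinase that phosphorylates RNA polymerase II, with activity against CDK12 and CDK13 as well. The study asked what THZ1 does to stemness and Hedgehog signalling, and the AP-1 genes are looked at here within that same comparison. They were picked with the THZ1 over DMSO values already known, so those values are a description and carry no test.

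AP-1 is a dimer. FOS proteins need a partner, usually a JUN protein, while JUN proteins can also pair with each other, and the dimers bind the DNA sequence TGACTCA through a basic leucine zipper (bZIP). FOS, FOSB, JUN and JUNB are immediate early genes, whose mRNAs appear within minutes of a growth factor or stress signal and are short-lived, whereas FOSL1 and FOSL2 are induced later. FOSL1 is known for its high expression in invasive and RAS-driven carcinoma cells, where AP-1 itself drives its transcription.

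The THZ1 library held 18313827 counts and the DMSO library 18445831. Levels are given as CPM, the counts of a gene per 1000000 counts of library after TMM scaling, which sets the bulk of genes equal between the libraries, and a log2 ratio is that of the THZ1 over the DMSO library. A gene was called higher or lower when the ratio was at least 2-fold and its 95% interval excluded no difference. By that rule 21.3% of 12457 tested genes were lower and 9.70% higher in THZ1, with a median log2 ratio of −0.03. There were no replicates, so no p-value is given and all intervals cover counting error only. CDK7 itself had 180 counts in THZ1 and 676 in DMSO. Of 16 urothelial and epithelial markers, 4 (KRT8, KRT18, TP63 and FOXA1) reached 30 counts, KRT20, UPK1B and UPK3A were at 0 in both libraries, and CDH1 had 3 counts in THZ1 and 2 in DMSO. Their summed level was 45.5 CPM in THZ1 and 46.4 CPM in DMSO, most of it from KRT18 (494 counts in THZ1 and 696 in DMSO). FOXA1 had 21 counts in THZ1 and 129 in DMSO, and KRT8 100 in THZ1 and 77 in DMSO. None of 5 leukocyte and 4 endothelial markers reached 30 counts, and of 5 fibroblast markers COL1A1 (20 counts in THZ1 and 30 in DMSO) and LUM (69 and 34) did, with a summed level of 6.79 CPM in THZ1 and 3.54 CPM in DMSO. The part of these markers in the AP-1 values was not tested.

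The family split in both directions after THZ1. FOS, FOSB and JUNB were higher and FOSL1, FOSL2 and JUN were lower, each by at least 5-fold, while JUND lay within 2-fold. Thus 3 of 7 members were higher and 3 lower, beside the 9.70% and 21.3% of all tested genes, shares from which nothing is read because the members were chosen on this contrast. The median of the 7 log2 ratios was −0.44, and they spanned 7.01 on the log2 scale. In bulk RNA, fewer cells that express a gene and less RNA per cell cannot be told apart.

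**Figure D1:**
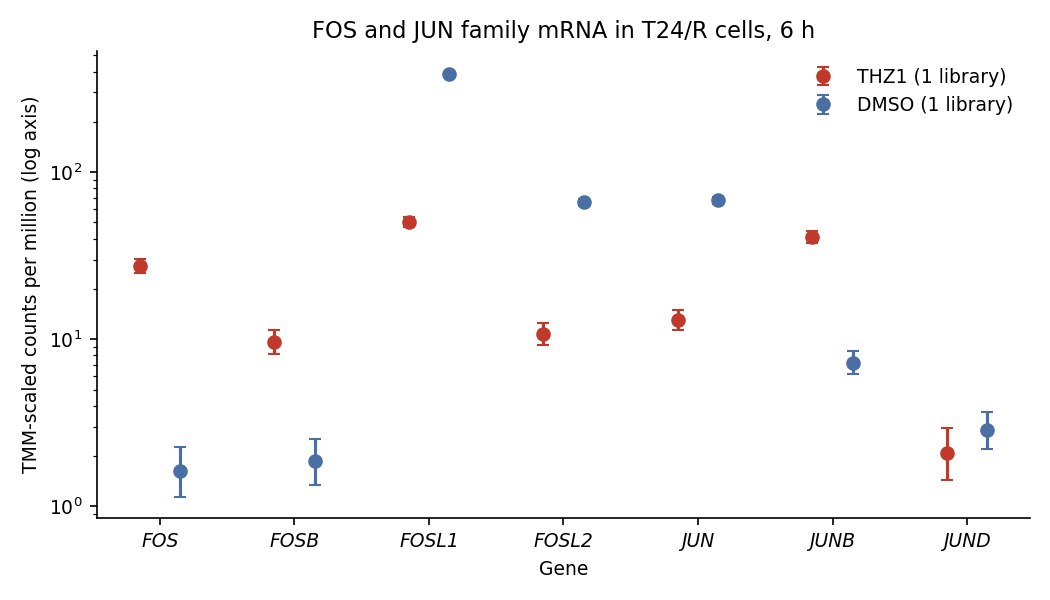
TMM-scaled CPM (log axis) of the 7 genes in the THZ1 (red) and DMSO (blue) library, with exact 95% Poisson intervals that cover counting error. FOS, FOSB and JUNB are higher in THZ1, FOSL1, FOSL2 and JUN are lower, and the intervals of JUND overlap.

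FOS, the prototype immediate early gene, stood at 27.5 CPM in THZ1 (421 counts) and 1.63 CPM in DMSO (36 counts). That is a 16.6-fold higher level, with a log2 ratio of 4.05 (3.58 to 4.61). Only 7 of 10881 tested protein-coding genes had a higher ratio. FOSB, a close relative of FOS that is also made as a shortened form by alternative splicing, had 9.66 CPM in THZ1 (148 counts) and 1.86 CPM in DMSO (41 counts), a log2 ratio of 2.36 (1.87 to 2.91). JUNB, a JUN protein that can oppose JUN at some promoters, had 41.0 CPM in THZ1 (628 counts) and 7.26 CPM in DMSO (160 counts), a log2 ratio of 2.49 (2.25 to 2.76). In DMSO FOS and FOSB were near the bottom of the expressed genes. Their level per kilobase of exonic length exceeded 65.6% (FOS) and 30.2% (FOSB) of tested protein-coding genes in THZ1, against 4.87% and 2.39% in DMSO.

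The genes that were lower had been the abundant ones. FOSL1, which encodes FRA-1, a FOS relative without the carboxy-terminal activation domain, had 50.3 CPM in THZ1 (770 counts) and 389 CPM in DMSO (8581 counts). Its log2 ratio was −2.95 (−3.06 to −2.85), 7.74-fold lower. Per kilobase it exceeded 86.2% of tested protein-coding genes in THZ1 and 99.3% in DMSO. FOSL2, which encodes the related FRA-2, had 10.8 CPM in THZ1 (165 counts) and 65.9 CPM in DMSO (1453 counts), a log2 ratio of −2.61 (−2.85 to −2.38). JUN, the founding AP-1 subunit and itself a gene that AP-1 activates, had 13.1 CPM in THZ1 (201 counts) and 67.8 CPM in DMSO (1495 counts), a log2 ratio of −2.37 (−2.59 to −2.16). JUND, the JUN protein usually described as steady and growth-restraining, had 2.09 CPM in THZ1 (32 counts) and 2.86 CPM in DMSO (63 counts), with a log2 ratio of −0.44 (−1.11 to 0.18). With TMM a difference in JUND was thus not detectable at this depth, and with total counts its interval lay below 0 (−0.96, −1.63 to −0.33).

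**Figure D2:**
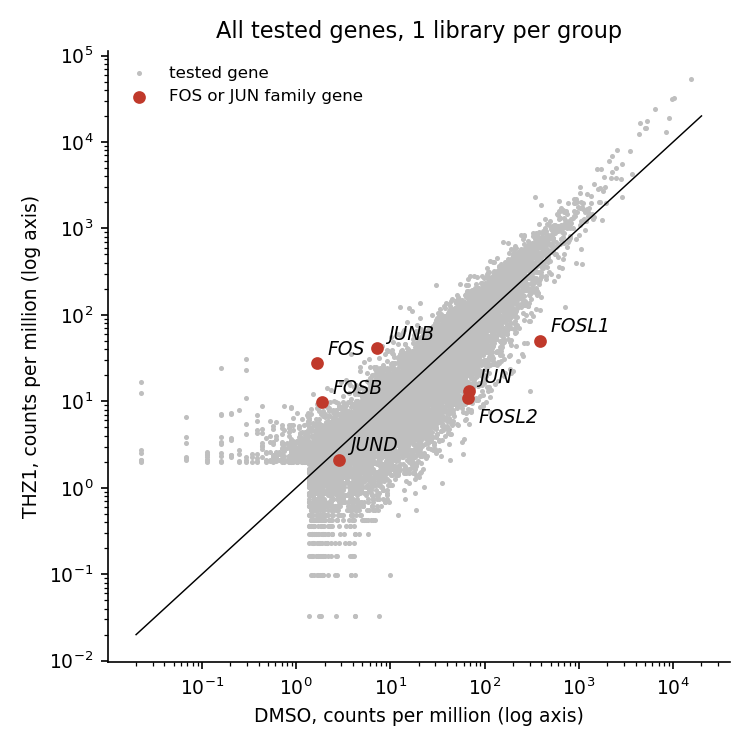
Each grey point is a tested gene, with its DMSO level on the x axis and its THZ1 level on the y axis (TMM-scaled CPM with 0.5 added to each count, log axes), and the 7 AP-1 genes are in red. FOS, FOSB and JUNB lie above the line of equal levels and FOSL1, JUN and FOSL2 below it.

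The make-up of the AP-1 mRNA pool differed between the libraries, a quantity that does not depend on how the libraries are scaled to each other. FOSL1 took 32.6% of the family's counts in THZ1 (exact 95% interval 30.7 to 34.5, of 2365 counts) and 72.5% in DMSO (71.7 to 73.3, of 11829 counts). JUNB took 26.6% in THZ1 (24.8 to 28.4) and 1.35% in DMSO (1.15 to 1.58). FOS took 17.8% in THZ1 (16.3 to 19.4) and 0.304% in DMSO (0.213 to 0.421). Because the transcripts differ in length, the shares were also taken per kilobase of exonic length. On that scale FOSL1 made up 40.5% of the pool in THZ1 and 85.6% in DMSO, JUNB 34.3% and 1.66%, FOS 12.9% and 0.209%, and JUN 5.64% and 7.95%. The shares move with the length used. By the length of a representative coding transcript of each gene, FOSL1 made up 40.5% in THZ1 and 86.7% in DMSO. JUNB then made up 30.3% and 1.48%, and FOS 17.1% and 0.281%. FOSB and FOSL2 stayed below 4% of the pool per kilobase in both libraries.

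**Figure D3:**
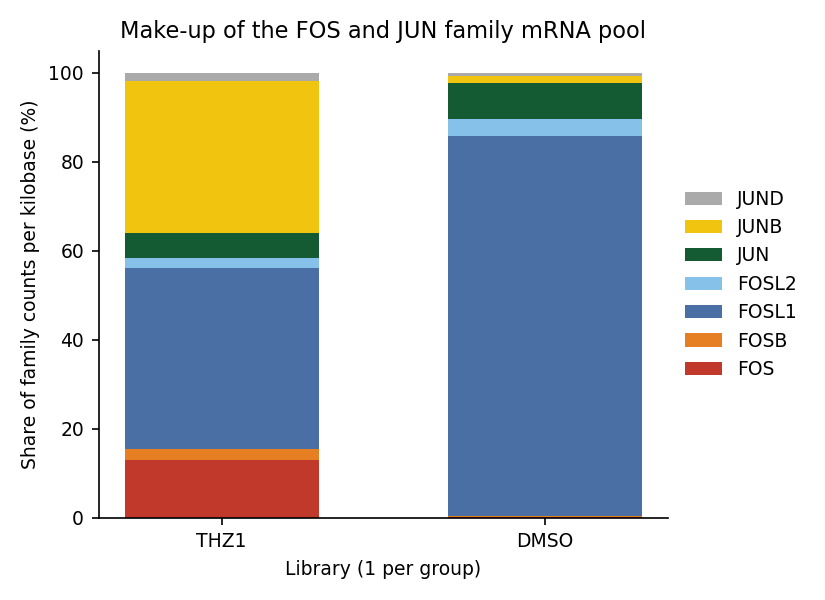
Share of each gene in the summed counts per kilobase of the 7 genes (%, stacked bars) in the THZ1 library (left) and the DMSO library (right). FOSL1 fills 85.6% of the DMSO bar, while FOSL1, JUNB and FOS fill 40.5%, 34.3% and 12.9% of the THZ1 bar.

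Among the JUN genes the leading mRNA was a different one in each library. JUNB held 72.9% of JUN-type counts in THZ1 (69.8 to 75.9, of 861) and 9.31% in DMSO (7.98 to 10.8, of 1718), whereas JUN held 23.3% in THZ1 (20.6 to 26.3) and 87.0% in DMSO (85.3 to 88.6). There were 3.12 JUNB counts for each JUN count in THZ1 and 0.107 in DMSO, a log2 difference of 4.87 (approximate 95% counting interval 4.54 to 5.20). Among the FOS genes FOSL1 stayed in the lead, with 51.2% of FOS-type counts in THZ1 (48.6 to 53.8, of 1504) and 84.9% in DMSO (84.2 to 85.6, of 10111). The FOS share of these counts was 28.0% in THZ1 (25.7 to 30.3) and 0.356% in DMSO (0.250 to 0.493). FOS and FOSL1 moved 7.03 apart on the log2 scale (6.52 to 7.53), and FOS also exceeded FOSB by 1.70 (0.996 to 2.40). FOSL1 and FOSL2 were both lower, with a difference of −0.34 between them (−0.60 to −0.08).

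Summed per kilobase, the FOS-type genes reached 38.4 CPM per kilobase in THZ1 and 216 in DMSO, and the JUN-type genes 27.4 in THZ1 and 24.7 in DMSO. The ratio of FOS-type to JUN-type mRNA was 1.40 in THZ1 and 8.77 in DMSO. All 7 together were 3.48-fold lower in THZ1 by counts (log2 ratio of the sums −1.80, −1.86 to −1.73). The JUN-type sum depended on the measure: its log2 ratio was 0.15 per kilobase but −0.47 (−0.59 to −0.35) in plain counts, and −0.37 per kilobase when scaled to total counts, so no direction is given for it.

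How far each member moved depends on what the libraries are scaled to. Relative to TMM, every log2 ratio shifts by −0.51 with total counts and by −1.69 when the mitochondrially encoded mRNAs are the reference. Over all tested genes TMM gave 1208 higher and 2657 lower. Total counts gave 368 higher and 4260 lower, and the mitochondrial reference 88 higher and 10000 lower. On the mitochondrial reference FOS was still higher (2.37, 1.89 to 2.92), FOSB (0.67, 0.18 to 1.22) and JUNB (0.80, 0.56 to 1.07) were above 0 but within 2-fold, and JUND was lower (−2.13, −2.80 to −1.51). FOSL1, FOSL2 and JUN were lower under each of the 5 scalings.

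**Figure D4:**
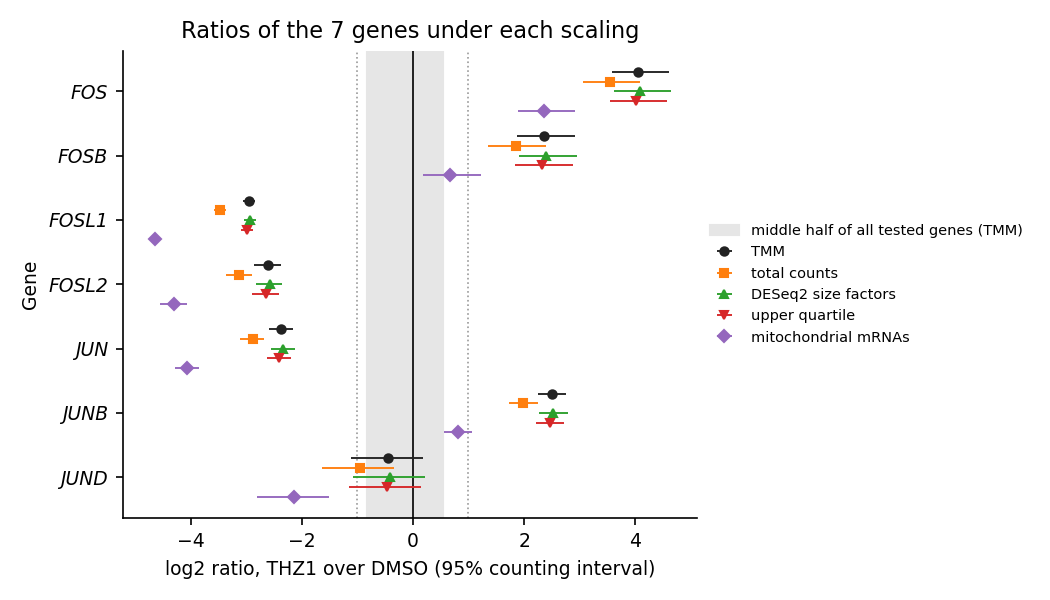
log2 ratio of THZ1 over DMSO for each gene under 5 scalings, with 95% counting intervals, dotted lines at 2-fold and a grey band for the middle 50% of tested genes under TMM. FOS stays beyond 2-fold under every scaling, and FOSB and JUNB lie between 0 and 2-fold on the mitochondrial reference.

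The promoters are shown because the genes that moved together can then be read side by side. RefSeq sequences (GRCh38.p14) were matched for 6 members: FOS, FOSB, FOSL2, JUN, JUNB and JUND. The 250 bases before the RefSeq transcription start are printed 5′ to 3′ on the gene's strand for the 3 higher genes and for JUN and FOSL2. They lie at chr14:75278578-75278827 (FOS, plus strand), chr19:45467746-45467995 (FOSB, plus), chr19:12791236-12791485 (JUNB, plus), chr1:58784048-58784297 (JUN, minus) and chr2:28392608-28392857 (FOSL2, plus). The JUN and FOSL2 windows lie wholly inside the GENCODE spans of those genes, so bases before their GENCODE starts were not searched. The end of the FOS window also runs past the GENCODE start of FOS. Capitals mark the TATA box TATAAA on the gene's strand and, on both strands, TGACG, the core of the cAMP response element, and TGACATCA, the AP-1-like site known from the JUN promoter.
FOS: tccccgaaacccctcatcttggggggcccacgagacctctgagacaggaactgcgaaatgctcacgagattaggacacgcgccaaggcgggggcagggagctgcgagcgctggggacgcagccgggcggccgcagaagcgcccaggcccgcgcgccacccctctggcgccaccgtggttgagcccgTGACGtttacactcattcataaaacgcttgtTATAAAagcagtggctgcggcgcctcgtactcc
FOSB: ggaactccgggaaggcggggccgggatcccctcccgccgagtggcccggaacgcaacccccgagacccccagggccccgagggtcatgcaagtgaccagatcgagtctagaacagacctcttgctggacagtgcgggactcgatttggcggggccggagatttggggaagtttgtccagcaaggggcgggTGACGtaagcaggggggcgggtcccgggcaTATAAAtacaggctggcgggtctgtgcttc
JUNB: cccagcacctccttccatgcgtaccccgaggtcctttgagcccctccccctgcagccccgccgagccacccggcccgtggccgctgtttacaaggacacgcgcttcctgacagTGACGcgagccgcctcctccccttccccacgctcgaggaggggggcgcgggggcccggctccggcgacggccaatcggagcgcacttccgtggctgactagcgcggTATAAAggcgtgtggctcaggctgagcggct
JUN: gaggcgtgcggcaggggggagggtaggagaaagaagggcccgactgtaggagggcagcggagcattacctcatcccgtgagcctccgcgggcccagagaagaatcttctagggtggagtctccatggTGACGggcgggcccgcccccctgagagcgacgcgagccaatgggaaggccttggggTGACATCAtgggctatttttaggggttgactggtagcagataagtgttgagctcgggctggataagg
FOSL2: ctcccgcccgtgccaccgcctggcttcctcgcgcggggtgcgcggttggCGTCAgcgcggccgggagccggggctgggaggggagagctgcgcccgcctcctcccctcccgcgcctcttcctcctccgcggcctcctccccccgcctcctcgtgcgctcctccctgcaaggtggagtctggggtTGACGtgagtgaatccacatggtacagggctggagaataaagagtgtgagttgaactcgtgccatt
FOS, FOSB and JUNB each have TATAAA, beginning 33, 30 and 31 bases before the start. This exact string was not found in the windows of JUN, FOSL2 and JUND, and 6.80% of 35116 promoters of this length have it. Variants of the string were not searched for. The JUND window, not printed here, holds TATAAG, which differs in the last base, near its end at the start site. FOSL1 had no window to search. The 6 windows are 62.0 to 74.8% GC, and the promoters counted beside them were not matched for GC. Those promoters were also not limited to tested genes. Of 9000 tested protein-coding genes with a promoter sequence, 277 have TATAAA, a smaller share than among all promoters. TGACG occurs in all 6 windows, against 21.2% of promoters, and at −64 and −60 in FOS and FOSB. Within JUND it forms the full element TGACGTCA (1.65% of promoters), which overlaps 2 of its TGACG matches. JUN has TGACATCA at −67 (2.37% of promoters). The AP-1 site TGACTCA (4.20% of promoters, both strands) was not found in these 6 windows.

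The TATA box was then looked at over all genes, a step chosen after its presence in the 3 higher members was seen. Of 277 tested protein-coding genes with TATAAA in the window, 11.2% were higher and 20.6% lower in THZ1, with a median log2 ratio of 0.06. Of 8723 without it, 7.18% were higher and 21.9% lower, with a median of −0.07. Most genes with the box were thus in neither class. The 277 include FOS, FOSB and JUNB themselves, and the part of the box in their values was not tested.

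JUN, JUNB and JUND have a single exon, while the representative transcripts of the 4 FOS genes have 4 exons. Members of either structure went in both directions: JUN (lower) and JUNB (higher) are both intronless, and FOSL1 (lower) and FOS (higher) are both spliced. The part of exon number in their values was not tested. Among all 235 tested coding genes with a single-exon transcript 18.7% were higher and 40.4% lower, against 7.36% and 21.6% of the 10640 with several exons. JUND has the most GC-rich transcript of the family, at 69.7% GC, above 99.8% of tested coding genes, and JUNB follows at 64.9%. FOS has the lowest at 52.6%.

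Early response mRNAs are known for AU-rich elements in their 3′ untranslated region, which bind proteins of the ZFP36 family and mark the mRNA for decay. The strong form TTATTTATT was found in FOS, 646 bases after the stop codon, and in FOSL2, 3917 bases after it. Both sites are printed with 10 bases on each side and the element in capitals, because these members moved in opposite directions while sharing it.
FOS: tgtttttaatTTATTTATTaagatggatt
FOSL2: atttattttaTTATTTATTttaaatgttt
The shorter ATTTA occurs in all 7 genes, with 5 copies in FOS, 9 in FOSL2, 3 each in JUN and FOSB, 2 in JUNB and 1 each in FOSL1 and JUND. It is common, found in 7784 of 10875 tested coding genes, so its presence does not mark out the family. The copies were not set against the length of the untranslated region, which is 806 bases in FOS and 4864 in FOSL2. Of 998 tested coding genes with TTATTTATT, 4.91% were higher and 23.6% lower, beside 7.60% and 22.0% of all 10875 tested coding genes with an annotated transcript.

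Genes next to or across the members bear on their counts, since the strand setting of the read counting is not given. FOSB (ENSG00000125740, chromosome 19 from 45467995 to 45475179) lies inside the span of ERCC1 on the opposite strand with no exon shared, and ERCC1 had 628 counts in THZ1 and 799 in DMSO. JUNB (ENSG00000171223, chromosome 19 from 12791496 to 12793315) shares 259 exonic bases with HOOK2 on the opposite strand, which had 74 counts in THZ1 and 107 in DMSO, both below those of JUNB. The part of these neighbours in the FOSB and JUNB values was not tested. Exons of FOS (ENSG00000170345, chromosome 14 from 75278774 to 75282230), FOSL1 (ENSG00000175592, chromosome 11 from 65892049 to 65900573), FOSL2 (ENSG00000075426, chromosome 2 from 28392448 to 28417312), JUN (ENSG00000177606, chromosome 1 from 58780788 to 58784327) and JUND (ENSG00000130522, chromosome 19 from 18279760 to 18281622) share no base with those of another annotated gene.

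Among protein-coding genes that reached 200 counts in either library, those with ratios nearest to that of FOS were TLCD2 (log2 ratio 3.18), COX6A1 (2.86) and H2AC8 (2.51). COX6A1 and H2AC8 have near-identical copies in the genome and their values are uncertain. Nearest to FOSL1, by the same count limit, were the small GTPase gene ARF6 (−2.96; 328 counts in THZ1 and 3666 in DMSO), the tumour suppressor gene DLC1 (−2.96; 146 and 1636) and the chromatin insulator gene CTCF (−2.96; 174 and 1951). Likeness here is the difference in 1 ratio between 2 libraries and says nothing of shared control.

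The other bZIP factors include the partners that JUN and FOS proteins can take in place of each other. Of 44 listed, 27 had enough counts, and 7 of these (25.9%) were lower, 0 were higher and 20 were neither. Their median was −0.05, beside 21.3% lower and 9.70% higher among all tested genes. TEF, a factor of the circadian output (−3.16; 12 counts in THZ1 and 160 in DMSO), NFE2L2, the regulator of antioxidant genes (−2.32; 452 and 3250), XBP1 of the unfolded protein response (−1.88; 238 and 1261) and NFIL3 (−1.51; 39 and 161) were lower. So were CREB1 (−1.47), which binds the cAMP response element, DDIT3 (−1.40) and BACH1 (−1.30), named after their values were seen. The usual JUN partners ATF2 (0.21, 0.10 to 0.31) and ATF3 (0.06, −0.62 to 0.73) lay within 2-fold. Of the other listed factors, BATF3 was within 2-fold with an interval below 0 (−0.97, −1.47 to −0.51). JDP2 had 0 counts in THZ1 and 13 in DMSO, too few to compare. NFE2L3 (0.90), ATF6 (0.73), ATF6B (0.53) and CREM (0.50) had the highest ratios among those with 100 or more counts, all below 2-fold. BATF, a bZIP protein of lymphoid cells, was at 0 in both libraries.

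Kinases that signal to AP-1 and factors that bind the promoters of its genes were mostly within 2-fold, with 7 of 31 lower (22.6%), 2 higher (6.45%) and 22 neither, and a median of 0.03, beside the 21.3% lower and 9.70% higher of all tested genes. The lower share is about that of all tested genes. Lower were MAPK7, which encodes ERK5 (−3.10; 29 counts in THZ1 and 364 in DMSO), the SRF coactivator MRTFA (−2.99; 33 and 382), MAP2K3, a kinase of the p38 branch (−2.40; 103 and 784), and MEF2D (−1.87; 69 and 365). MAP2K4 (−1.68) and MAP2K7 (−1.64), the 2 kinases that activate JNK, and MRTFB (−1.25) were lower too, named after their values were seen. Higher were MAPK10, which encodes JNK3 (1.97; 110 counts in THZ1 and 40 in DMSO), and MAP2K6, another p38 kinase (1.32; 264 and 152). With total counts 1 gene of the list was higher and with the mitochondrial reference 0. SRF, which binds the serum response element of FOS, had a ratio of −0.91 (−1.12 to −0.70), and its partner ELK1 0.09 (−0.07 to 0.24). The ERK gene MAPK3 (0.84) and the JNK gene MAPK9 (0.87) lay within 2-fold.

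Regulators of FOS and JUN turnover had 6 of 18 lower (33.3%) and 0 higher, and 12 were neither. Their median was −0.25, and of all tested genes 21.3% were lower and 9.70% higher. All 3 listed members of the ZFP36 family, which bind AU-rich elements, were lower: ZFP36L2 (−2.68; 41 counts in THZ1 and 383 in DMSO), ZFP36L1 (−1.55; 1610 and 6767) and ZFP36 (−1.17, −2.00 to −0.46; 20 and 66). TRIB3 (−3.34; 8 and 123) and TRIB1 (−1.88; 17 and 92), adaptors of ubiquitin ligases, and GSK3B, a kinase that phosphorylates JUN ahead of its degradation (−1.02, −1.16 to −0.89), completed the 6. The other TRIB gene of the list, TRIB2, lay within 2-fold (0.04, −0.40 to 0.47). GSK3B lies at the 2-fold limit and lost its call with DESeq2 size factors, where 5 of the list were lower. With 5 counts added 5 were lower, and ZFP36 was not among them. With the interval bound at 2-fold 4 were lower, and neither GSK3B nor ZFP36 was among them. ZFP36, TRIB1, TRIB2, KHSRP, COP1 and FBXW7 are named after their values were seen. The ratios of the AU-rich element binders HNRNPD (0.27), ELAVL1 (0.21) and KHSRP (−0.50, −0.59 to −0.42) lay within 2-fold, that of KHSRP with an interval below 0. Also within 2-fold were the ubiquitin ligase genes CUL4A (0.51), DDB1 (0.25), COP1 (−0.38) and FBXW7 (−0.13).

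Genes known as AP-1 targets in other cells were mostly within 2-fold, with 6 of 35 lower (17.1%, beside 21.3%), 1 higher (2.86%, beside 9.70%) and 28 in neither class. Their median was −0.15. Lower were HBEGF, a ligand of the epidermal growth factor receptor (−2.55; 113 counts in THZ1 and 953 in DMSO), the cytokine gene LIF (−1.94; 317 and 1747), the sphingosine kinase gene SPHK1 (−1.91; 180 and 978) and PHLDA1 (−1.76; 802 and 3915). The MAP kinase phosphatase gene DUSP1 (−1.32; 382 and 1374) was also lower, named after its values were seen. SPP1, which encodes osteopontin, was higher (1.10, 0.83 to 1.37; 285 counts in THZ1 and 191 in DMSO), but not with total counts or the mitochondrial reference. Other targets lay within 2-fold, among them VIM (0.94), EREG (0.98), ZEB1 (0.73), CXCL8 (0.16), CD44 (0.17) and CCND1 (−0.14). MMP1, the collagenase gene often used as an AP-1 readout, had 0 counts in THZ1 and 5 in DMSO, too few to compare.

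**Figure D5:**
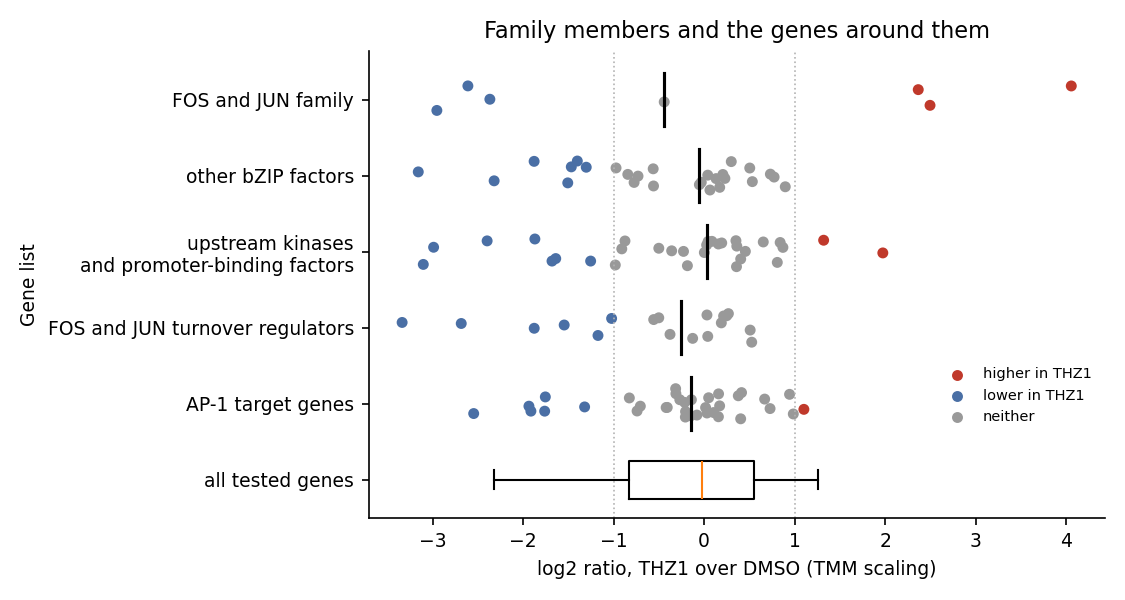
log2 ratio of THZ1 over DMSO for the tested genes of each list (points, vertical spread for legibility, black bar at the median) and for all tested genes (box with quartiles, whiskers at the 5th and 95th percentile). FOS, FOSB and JUNB lie towards the upper end, FOSL1, FOSL2 and JUN towards the lower end and JUND in the middle, and the medians of the other 4 lists lie between −0.25 and 0.03.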

How the data were processed

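The deposited values are unnormalized read counts by Ensembl gene ID, as their whole-number values show. Per the submitters' processing notes, Trimmomatic 0.38, HISAT2 2.1.0 and featureCounts 1.6.0 were used with the build GRCh38. Which annotation and strand setting the counting used, and how multi-mapping reads were handled, is not stated in the labels. RNA was extracted with TRIzol and libraries were made with a KAPA mRNA kit, per the labels' protocols.

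Libraries were grouped by their treatment label. A gene was tested if either library had 30 or more counts for it. Effective library sizes came from TMM on the tested genes (edgeR 4.0.16, R 4.3.3), at 15320940 for THZ1 and 22049153 for DMSO. Log2 ratios used 0.5 added to each count. For each gene the Clopper-Pearson 95% bounds on THZ1's part of the summed counts were converted to a ratio, which covers counting error only: reads carry no known molecular identifiers and can be copies of the same molecule. Intervals for differences between members are normal approximations on the log scale. With 1 library per group, edgeR's quasi-likelihood test cannot be used. The calls were tested on simulated data that held counting error only, which cannot show how they would hold between replicate samples.

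Symbols came from a symbol table and GENCODE 29 (GRCh38), which held 58611 of the IDs and gave coordinates, exonic lengths and transcripts. Promoters came from RefSeq (GRCh38.p14), whose start sites can differ from those of GENCODE. The members and lists were chosen with earlier results of these data known. The text names all members, up to 4 genes at each end of a list among those with 100 or more counts, and the 3 coding genes nearest to FOS and to FOSL1 with 200 or more. Other listed genes that it names, among them ATF2, SRF, ELK1, COP1, CXCL8 and CCND1, fall outside this rule and were picked with the results known. Of the lower AP-1 targets, 1 is not reported here by name. Other scalings tried were DESeq2 1.42.0 size factors, total counts, mitochondrial mRNAs and the upper quartile. Further alternatives were count minimums of 1 and 100, 5 counts added, an interval bound of at least 2-fold, and coding genes only. Scripts ran in Python 3.11.15 with scipy 1.17.1, numpy 2.4.6, pandas 2.3.3 and matplotlib 3.10.9.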

Additional observations from a re-analysis of the deposited data

How the results depend on the processing

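FOSL1, FOSL2 and JUN were lower and FOS was higher under all 9 alternatives. The 3 members called higher became 1 with the mitochondrial reference. Scaling moved other counts. With total counts, 4260 genes were lower and 368 higher, and the lists had 13 bZIP factors, 11 upstream genes lower and 1 higher, and 0 AP-1 targets higher. With the mitochondrial reference, 10000 genes were lower and 88 higher, and 24 bZIP factors, 26 upstream genes, 18 turnover regulators and 31 AP-1 targets were lower, with 0 upstream genes and 0 targets higher. With DESeq2 size factors 2 targets were higher. With a minimum of 1 count 2223 genes were higher, and with the interval bound at 2-fold 670 genes and 0 targets were higher. The other 89 of 108 counts stayed within 1.5 times. Of 62 member ratios under the alternatives 13 left their counting interval, all with total counts or the mitochondrial reference, and 0 changed sign. JUND has no value at a minimum of 100 counts. With 1 library per group no replicate could be left out, and no paired analysis was possible because each group had 1 library. Depth limits JUND, FOSB and FOS in DMSO, with 63, 41 and 36 counts.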

Other observations

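An annotated transcript inside an intron of FOSL2 on the same strand (ENSG00000270640) had 22 counts in THZ1 and 2 in DMSO, while FOSL2 itself had 165 in THZ1 and 1453 in DMSO. It lies under the minimum for testing. The antisense gene FOSL2-AS1 had 2 counts in THZ1 and 1 in DMSO, and LINC01135, next to JUN on the opposite strand, had 2 in THZ1 and 4 in DMSO. Within 5 kb of FOSL1 and sharing no base with it, FIBP had 557 counts in THZ1 and 600 in DMSO, and CCDC85B had 228 in THZ1 and 668 in DMSO.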
